A study of Mus musculus with 16 samples.

Results

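Glycolysis, pyruvate handling and glucose uptake were followed through 35 listed genes in whole lung and whole cerebellum of neonatal C57BL/6J mice given dexamethasone or vehicle. The genes were taken by symbol from a list of pathway enzymes, transporters and regulators, and each was read from its brightest probe set, by the mean of all 16 arrays. Of the 35, 31 had a probe set assigned to them alone, among 18193 genes in all. Gapdh was read only from the control probe sets of the array and stands outside the fit, and Gpi1, Eno1 and Pfkfb1 are not analysed here.

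The study set dexamethasone against vehicle in each organ at postnatal day 7, with 4 arrays per group. Dexamethasone is a synthetic agonist of the glucocorticoid receptor. The dexamethasone lungs were arrays B28, B31, B40 and B46, against B12, B14, B19 and B22 for vehicle lungs. The dexamethasone cerebella were B39, B49, B50 and B52, against B78, B79, B80 and B81 for vehicle cerebella. Values of a group are listed in that order of arrays throughout. All mice were of the same strain and age. Dose, schedule and vehicle composition are not given here. Nothing in the labels ties arrays to litters, and p-values reflect only how much these arrays spread, which may be technical. Each value comes from a whole organ, in which fewer cells of a type and less RNA per cell cannot be told apart.

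Glycolysis splits glucose into pyruvate in the cytosol. Glucose enters through facilitative transporters, is trapped by hexokinase and is committed at phosphofructokinase, whose activity is set in part by the PFKFB enzymes. Pyruvate is then reduced to lactate by lactate dehydrogenase, oxidised by the mitochondrial pyruvate dehydrogenase complex, or carboxylated to oxaloacetate by pyruvate carboxylase. The PDK kinases switch the complex off and the PDP phosphatases switch it on. Txnip is an arrestin-like protein that lowers glucose uptake, and its transcription rises with glucose through the MondoA and ChREBP factors and their partner Mlx. Pdk4 is a well known glucocorticoid-inducible gene of muscle, liver and fat.

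The deposited values are log2 RMA expression values, so a difference of 1 is a 2-fold change. They ran from 3.15 to 14.8 over all probe sets, and array medians from 5.87 to 6.00. Lung arrays correlated with each other at 0.946 or more, cerebellar arrays at 0.977 or more, and arrays of different organs at 0.749 to 0.830. Labels matched the tissue. The summed level of 4 alveolar type 2 markers, as log2 of the sum of linear values, was 15.33 to 15.88 in lungs and 10.12 to 10.53 in cerebella. That of 6 neuronal markers was 8.90 to 9.70 in lungs and 14.73 to 15.24 in cerebella. A difference was called at a limma adjusted p under 0.05 over all 18193 genes, and each error given with a log2 change is its moderated standard error. Because the 4 groups share a spread per gene, the error is too small where 1 group varies far more than the others, as for Pdk4 in treated lungs.

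The promoters of Hk2, Txnip and Pdk4 are shown because the results turn on them: a hexokinase called in both organs and 2 regulators whose response differed between the organs. Each runs from 250 bases before to 50 bases after a RefSeq start (GRCm38.p6), 5′ to 3′ on the strand of the gene. Capitals in Hk2 mark ACGTG, the core of the hypoxia response element, read on either strand. Those in Txnip mark a pair of CACGAG arms with their spacer, the carbohydrate response element to which ChREBP and MondoA bind. Pdk4 has no capitals because none of the motifs searched occurs in this window.
Hk2, chr6:82774405-82774704, minus strand: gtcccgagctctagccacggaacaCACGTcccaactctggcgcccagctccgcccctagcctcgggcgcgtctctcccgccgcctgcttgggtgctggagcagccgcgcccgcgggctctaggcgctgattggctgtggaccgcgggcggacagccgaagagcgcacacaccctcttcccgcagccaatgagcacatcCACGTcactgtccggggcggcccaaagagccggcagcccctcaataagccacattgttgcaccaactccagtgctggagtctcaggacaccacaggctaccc
Txnip, chr3:96557707-96558006, plus strand: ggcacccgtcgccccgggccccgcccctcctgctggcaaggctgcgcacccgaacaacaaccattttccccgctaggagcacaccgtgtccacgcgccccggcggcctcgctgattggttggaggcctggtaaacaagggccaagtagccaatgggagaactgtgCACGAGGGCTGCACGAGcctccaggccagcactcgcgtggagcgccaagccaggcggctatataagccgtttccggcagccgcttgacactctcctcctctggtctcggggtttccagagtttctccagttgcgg
Pdk4, chr6:5496229-5496528, minus strand: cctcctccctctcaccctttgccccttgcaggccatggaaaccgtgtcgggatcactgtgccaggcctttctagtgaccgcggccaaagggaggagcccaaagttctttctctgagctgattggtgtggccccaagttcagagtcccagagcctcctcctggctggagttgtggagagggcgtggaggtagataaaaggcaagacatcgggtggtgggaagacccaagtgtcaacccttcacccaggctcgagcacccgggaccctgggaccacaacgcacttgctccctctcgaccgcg

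Promoter windows were found for 28 of the 31 genes, 43 windows in all, since some genes have several starts and some windows overlap. ACGTG, searched on both strands, occurred in 21 of the 43, against 19.6% of 32851 promoters of the same length. Those 21 windows belong to 17 of the 28 genes, and the shares were not compared by a test. CACGTG, the E-box, which contains ACGTG, occurred in 6 of 43, against 7.15%. AGAACA, an arm of the glucocorticoid response element, occurred in 9 of 43, against 6233 of the 32851, and the full palindrome of the element in 0 of 43, against 0.00913%. The arm CACGAG, which was searched after the Txnip sequence had been seen, occurred in 5 of 43, against 6.47%. The pair of CACGAG arms, 5 bases apart, was also chosen from the Txnip sequence, so its presence there was fixed in advance. It was in that single promoter among the 32851, at bases -85 to -69 from the start. In Hk2 the 2 copies of ACGTG lay at -226 to -222 and at -52 to -48. Such matches describe letters in these windows and no binding was measured.

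In the dexamethasone lungs RNA was higher for genes of glucose entry, of several steps of glycolysis and of pyruvate handling. The phosphofructokinase subunits, Ldha and the pyruvate dehydrogenase subunits Pdha1, Pdhb and Dlat were not called higher. Pdk4 rose 7.54-fold, Pcx 2.86-fold, Hk2 2.68-fold, Slc2a3 2.53-fold and Slc2a1 2.38-fold. Of the 31 members, 15 rose and 1 fell, where 15.7% of all genes rose and 15.5% fell (31.2% called in either direction, against 51.6% of the members). All genes include dim ones, and the shares of members and of all genes, here and below, were not matched for level. The median log2 change of the members was 0.28, against 0.05 for all genes. In 16 members every treated lung lay above every vehicle lung and in 1 every treated lung lay below, where such a gap between the groups was found in 30.6% of all genes (15.1% higher and 15.5% lower). The plot of changes in both organs sets these members beside each other.

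**Figure D1:**
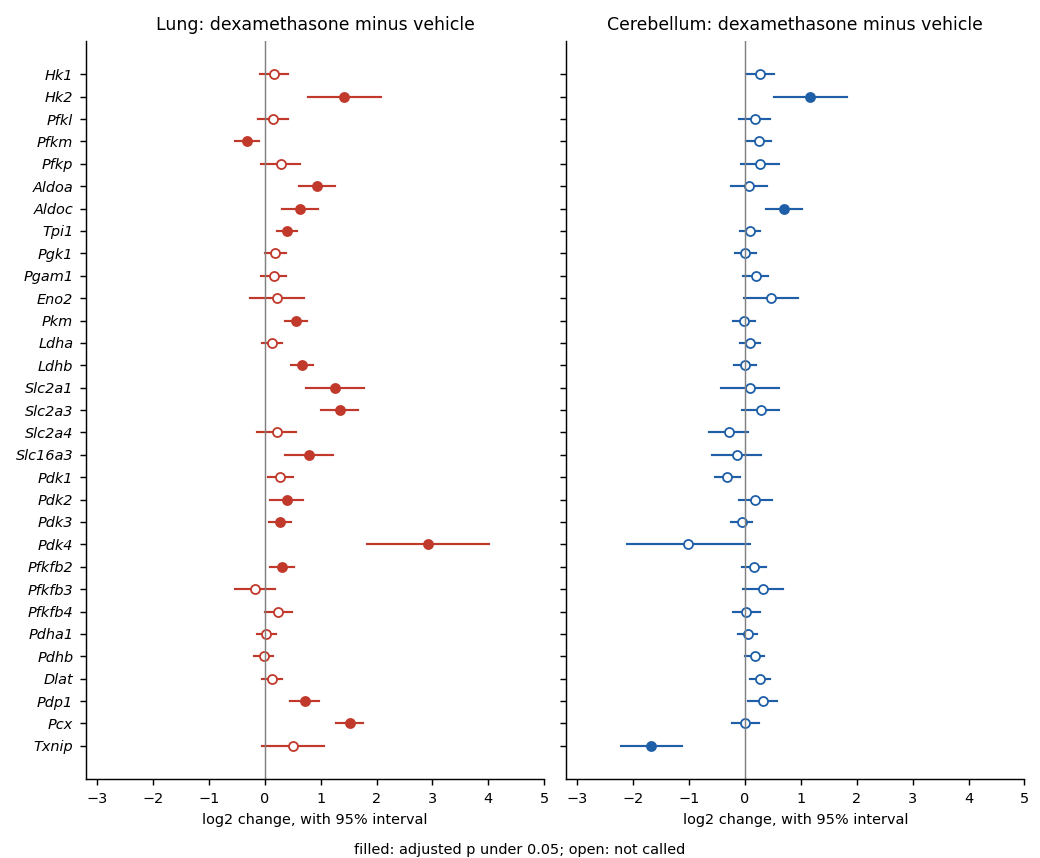
Log2 change with dexamethasone (dexamethasone minus vehicle) for the 31 members in lung and in cerebellum, with 95% intervals from the fit on 4 arrays per group. In lung 16 points are filled (called), from -0.31 for Pfkm to 2.91 for Pdk4, and in cerebellum 3 are filled, Hk2 and Aldoc to the right of 0 and Txnip to the left.

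Glucose transporters are the entry of the pathway. Slc2a1, the widely expressed transporter GLUT1, had 9.38, 9.02, 9.64 and 10.20 in dexamethasone lungs, against 8.27, 8.20, 8.04 and 8.71 in vehicle lungs. The lowest treated lung lay above the highest vehicle lung, and B46 was the highest of all. This gave a log2 change of 1.25 ± 0.24 (limma adjusted p = 0.000847), and all 3 of its probe sets were called, at 1.25 to 1.55. Slc2a3, the high-affinity transporter GLUT3 of neurons and leukocytes, had 10.34, 9.75, 10.21 and 10.13 in dexamethasone lungs, against 8.66, 8.65, 8.74 and 9.02 in vehicle lungs. Here the groups were further apart and B46 did not stand out. Its log2 change with dexamethasone was 1.34 ± 0.16 (limma adjusted p = 7.26e-06). Of the 4 probe sets of Slc2a3 the 2 bright ones rose, at 1.34 and 1.30, while the others, with mean levels of 4.62 and 4.28 near the floor, had 0.37 and -0.08 and were not called. Slc2a4, the insulin-responsive transporter GLUT4, averaged 7.39 ± 0.35 in dexamethasone lungs and 7.17 ± 0.30 in vehicle lungs (SD, n = 4 each) and was not called (log2 change 0.21, 95% interval -0.13 to 0.56).

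Slc16a3, the lactate exporter MCT4, had 6.23, 6.22, 6.61 and 7.14 in dexamethasone lungs, against 5.55, 5.78, 5.99 and 5.70 in vehicle lungs. The groups did not overlap, although all values lay in the lower part of the range of the arrays. The log2 change was 0.79 ± 0.20 (limma adjusted p = 0.00672).

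Hexokinase traps glucose as glucose 6-phosphate. Hk2, the inducible isozyme of muscle, fat and proliferating cells, had 8.77, 8.57, 9.02 and 9.84 in dexamethasone lungs, against 7.70, 7.50, 7.27 and 8.05 in vehicle lungs. All treated lungs were above all vehicle lungs, with B46 again at the top. This gave a log2 change of 1.42 ± 0.31 (limma adjusted p = 0.00193), and 1.16 without B46. Hk1, the constitutive isozyme, had a log2 change of 0.16 ± 0.12 (adjusted p = 0.335). Its dimmer probe set had 0.54 and was called (adjusted p = 0.0469).

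Phosphofructokinase commits glucose to glycolysis, and none of its 3 subunits was called higher in lung. Pfkm, the muscle-type subunit, had 8.68, 8.74, 8.59 and 8.33 in dexamethasone lungs, against 8.81, 8.93, 8.96 and 8.90 in vehicle lungs, a fall of 1.24-fold in which the groups did not overlap. It was the only 1 of the 31 members called lower in lung (log2 change -0.31 ± 0.10, limma adjusted p = 0.0262). That call was lost without B46, B14, B19 or B22 (adjusted p 0.0509 to 0.0866), using lung arrays only (0.0544), with Xist level as a covariate (0.0515) and after quantile normalization (0.0640). The liver-type Pfkl and platelet-type Pfkp had log2 changes of 0.15 ± 0.13 and 0.28 ± 0.16 and were not called. Among the PFKFB enzymes, which make and break the sugar bisphosphate that activates phosphofructokinase, Pfkfb2 rose 1.24-fold (log2 change 0.31 ± 0.10, adjusted p = 0.0299). Its values were 7.53, 7.37, 7.55 and 7.33 in dexamethasone lungs, against 7.33, 7.01, 7.09 and 7.12 in vehicle lungs. The groups barely parted. The call held in 11 of 16 fits that each left out 1 array, and its other 3 probe sets were not called. Pfkfb3 had 7.25, 7.17, 7.43 and 8.07 in dexamethasone lungs, against 7.38, 7.80, 7.66 and 7.81 in vehicle lungs. Without B46 it was called lower (log2 change -0.38 in place of -0.18, adjusted p = 0.0381). Pfkfb4 had 8.95, 8.97, 8.94 and 8.45 in dexamethasone lungs, against 8.53, 8.53, 8.63 and 8.65 in vehicle lungs, and without B46 was called higher (0.37 in place of 0.24, adjusted p = 0.00603). For Pfkfb4, B46 lay below the vehicle range and the other 3 treated lungs above it. For Pfkfb3, B46 lay above the vehicle range, B28 and B31 below it and B40 inside it.

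Of the aldolases, which cleave the sugar bisphosphate, both rose in lung. Aldoa, the form of muscle and most tissues, had 11.51, 11.25, 11.79 and 11.85 in dexamethasone lungs, against 10.47, 10.65, 10.59 and 10.96 in vehicle lungs (log2 change 0.93 ± 0.15, limma adjusted p = 0.00018), and its 5 probe sets were all called higher. Aldoc, the brain form, had 7.50, 7.85, 7.51 and 7.66 in dexamethasone lungs, against 6.98, 6.91, 7.02 and 7.07 in vehicle lungs (0.64 ± 0.15, adjusted p = 0.00405). The groups of both genes did not overlap. The dimmer probe set of Aldoc had 0.12 (adjusted p = 0.868), and with the 2 averaged the change was 0.38 and was not called (adjusted p = 0.311).

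Lower in the pathway, Tpi1 and Pkm rose. Tpi1, which interconverts the triose phosphates, had 10.99, 10.80, 10.92 and 10.83 in dexamethasone lungs, against 10.47, 10.35, 10.58 and 10.56 in vehicle lungs, a rise of 1.32-fold (log2 change 0.40 ± 0.08, limma adjusted p = 0.00142). Pkm, the pyruvate kinase of most tissues, had 11.21, 10.97, 11.21 and 11.32 in dexamethasone lungs, against 10.50, 10.63, 10.57 and 10.76 in vehicle lungs, a rise of 1.48-fold (0.56 ± 0.09, adjusted p = 0.00018). Both sets of arrays were fully apart. Pgk1, the kinase that makes the earliest ATP of glycolysis, had a log2 change of 0.19 (95% interval 0.00 to 0.38), the mutase Pgam1 0.16 (-0.06 to 0.38) and the neuronal enolase Eno2 0.22 (-0.26 to 0.71), and none of them was called. Taken alone, 1 of the 3 probe sets of Pgk1 was called higher, over a range of 0.09 to 0.24. Eno2 averaged 4.91 ± 0.12 in dexamethasone lungs and 4.68 ± 0.17 in vehicle lungs (SD, n = 4 each), near the floor of the array, where RMA understates a change.

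Lactate dehydrogenase is a tetramer of A and B subunits. Ldhb, the heart-type subunit, had 11.14, 10.92, 11.08 and 10.87 in dexamethasone lungs, against 10.36, 10.35, 10.21 and 10.42 in vehicle lungs. Every treated lung lay above every vehicle lung, and all 4 probe sets rose, by 0.67 to 0.84. Its log2 change with dexamethasone was 0.67 ± 0.09 (limma adjusted p = 4.11e-05). Ldha, the muscle-type subunit that favours lactate production, had 11.70, 11.70, 11.86 and 11.69 in dexamethasone lungs, against 11.56, 11.56, 11.61 and 11.70 in vehicle lungs, and was not called (0.13 ± 0.08, 95% interval -0.05 to 0.31).

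The largest change of any member was in Pdk4, a kinase that shuts off pyruvate dehydrogenase when fat is burned. It had 8.34, 8.61, 9.21 and 11.79 in dexamethasone lungs, against 6.96, 6.22, 6.87 and 6.23 in vehicle lungs. The 4 treated lungs were all above the vehicle lungs but far from alike, with B46 well above the next. The log2 change was 2.91 ± 0.52 (limma adjusted p = 0.000378). It was 2.15 without B46 (adjusted p = 7.36e-06) and 2.91 ± 0.64 on the lung arrays alone (adjusted p = 0.00739). Pdk3 rose 1.21-fold (log2 change 0.27 ± 0.09, adjusted p = 0.0282), with 9.04, 8.92, 8.97 and 8.95 in dexamethasone lungs, against 8.77, 8.66, 8.58 and 8.77 in vehicle lungs. Pdk2, the most widely expressed kinase of the family, rose 1.32-fold (0.40 ± 0.14, adjusted p = 0.0415), with 8.03, 8.07, 8.30 and 8.01 in dexamethasone lungs, against 7.54, 7.52, 7.74 and 8.04 in vehicle lungs. The Pdk2 groups overlapped through the vehicle array B22. The calls of Pdk2 and Pdk3 held in 9 and 12 of 16 fits that each left out 1 array. Pdk1, the hypoxia-inducible kinase, had 0.28 ± 0.11 and was not called (adjusted p = 0.0609), although its brightest probe set did not overlap between the groups. It was called without B39 or B19, with dim genes left out and after quantile normalization (adjusted p 0.0219 to 0.0465).

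Subunits of the complex that these kinases act on were not called. The E1 subunits Pdha1 and Pdhb had log2 changes of 0.03 (95% interval -0.14 to 0.20) and -0.02 (-0.19 to 0.15), and the E2 subunit Dlat 0.13 (-0.05 to 0.31), none of them called. Pdp1, the phosphatase that reactivates the complex, had 8.34, 8.36, 8.49 and 8.32 in dexamethasone lungs, against 7.86, 7.50, 7.93 and 7.37 in vehicle lungs. It rose 1.64-fold without overlap (log2 change 0.71 ± 0.12, limma adjusted p = 0.000244), so a kinase and a phosphatase of opposite action were both higher.

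Pcx, pyruvate carboxylase, feeds the citric acid cycle and gluconeogenesis and had the smallest adjusted p of the members in lung. Its values were 8.30, 8.49, 8.73 and 8.72 in dexamethasone lungs, against 7.01, 6.83, 7.23 and 7.09 in vehicle lungs. The groups were far apart, and the spread within groups was small beside that gap. This gave a log2 change of 1.52 ± 0.11 (adjusted p = 7.61e-08), and 1.45 to 1.60 over the alternatives tried. The array's own 3′ control probe set for this gene rose by 1.32, and its dimmer 5′ and middle ones had 0.28 to 0.77. Txnip had 12.52, 12.56, 12.63 and 13.15 in dexamethasone lungs, against 12.36, 12.29, 11.85 and 12.34 in vehicle lungs. Its groups did not overlap, yet it was not called (0.51 ± 0.26, adjusted p = 0.159). The other probe set of Txnip rose by 1.05 (adjusted p = 0.029), and the brighter one was called on the lung arrays alone (0.0484) and without B39 (0.0221). Its spread was widest in the treated cerebella, which enter the pooled error.

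**Figure D2:**
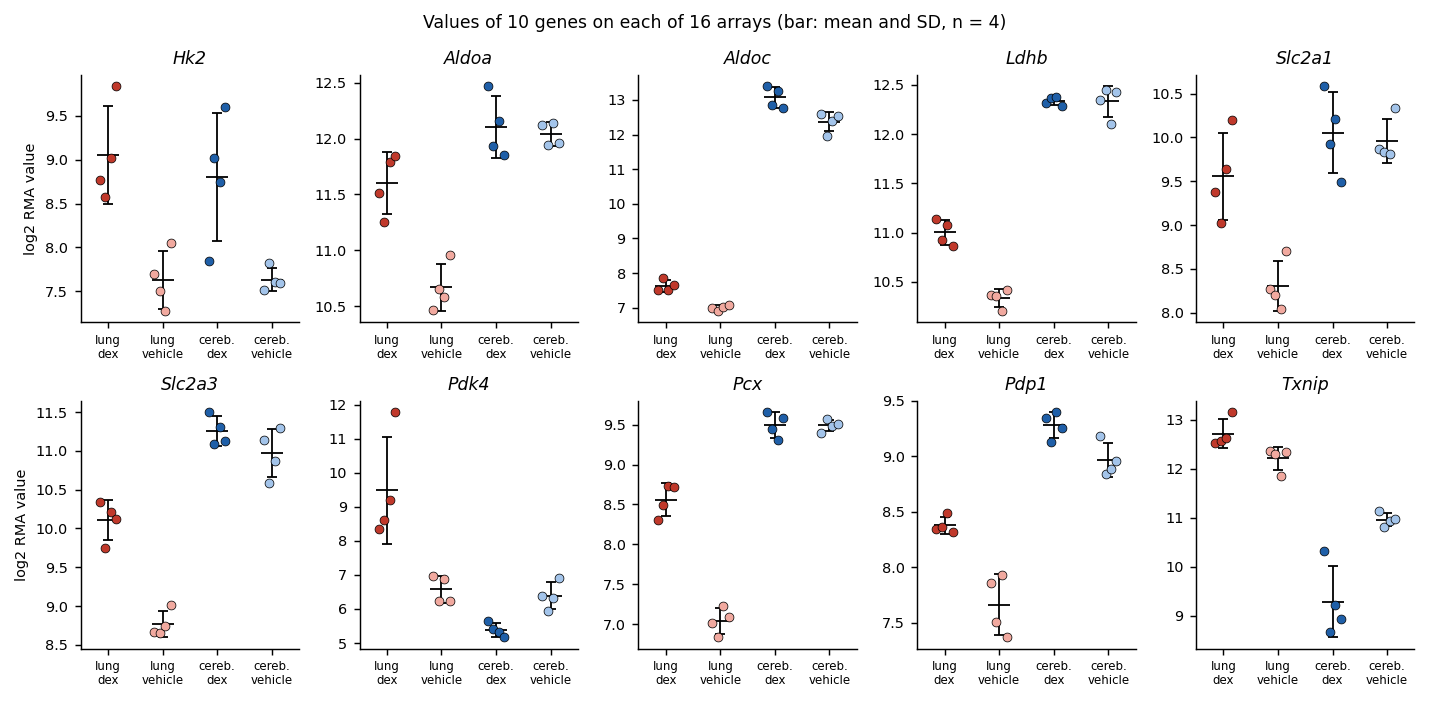
Log2 RMA values of 10 members on each of the 16 arrays, in lung and cerebellum with dexamethasone left of vehicle; bars are the mean and SD of 4 arrays. In 9 of the 10 panels, all but Txnip, the treated lungs were called higher than the vehicle lungs, and in cerebellum Hk2 and Aldoc lay higher and Txnip lower.

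Gapdh, the dehydrogenase often used as a loading control, was read from 3 control probe sets along its transcript, with p-values adjusted over all 45101 probe sets. The 3′ probe set had 12.83, 12.61, 12.69 and 12.92 in dexamethasone lungs, against 12.43, 12.42, 12.32 and 12.55 in vehicle lungs. The 5′ probe set had 12.38, 11.90, 12.15 and 12.40 in dexamethasone lungs, against 11.43, 11.38, 11.29 and 11.71 in vehicle lungs. In both the treated lungs lay above the vehicle lungs. The log2 changes from the 5′ end to the 3′ end were 0.76 (limma adjusted p = 0.00038), 0.54 (0.00163) and 0.33 (0.00987). Subtracting the 5′ value from the 3′ value, as a gauge of RNA integrity, gave 0.446 to 0.708 in dexamethasone lungs and 0.840 to 1.044 in vehicle lungs, without overlap. In lung, treatment and this gauge cannot be told apart. For actin it was 0.451 to 0.642 in dexamethasone lungs and 0.611 to 0.667 in vehicle lungs, which overlap. In cerebellum none of the 3 Gapdh probe sets was called, with log2 changes of 0.09 to 0.19.

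**Figure D3:**
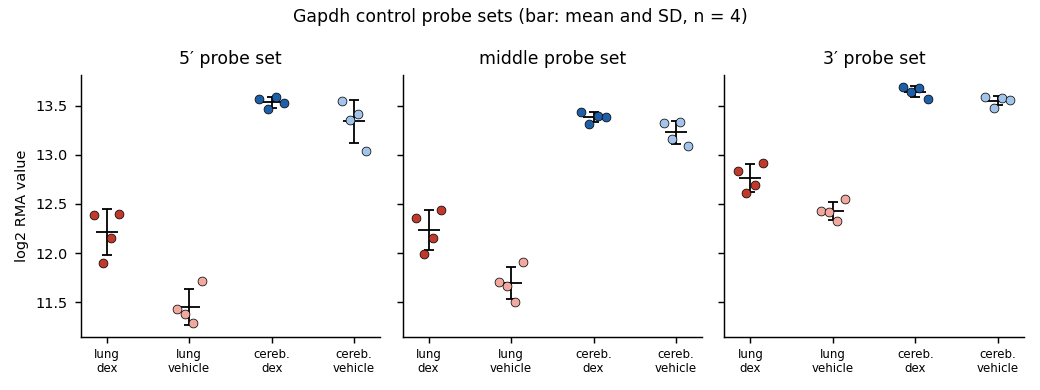
Log2 RMA values of the 5′, middle and 3′ control probe sets of Gapdh on each array, with dexamethasone left of vehicle; bars are the mean and SD of 4 arrays. The gap between dexamethasone and vehicle lungs narrows from 0.76 at the 5′ end to 0.33 at the 3′ end, and all lungs lie below all cerebella.

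Markers of other cells moved in the same lungs. All 9 neutrophil markers rose, with a summed level of 15.27 to 15.82 in dexamethasone lungs and 13.46 to 14.06 in vehicle lungs. Of 6 cardiac muscle markers 5 rose, with 12.46 to 13.46 in dexamethasone lungs and 11.65 to 12.02 in vehicle lungs. The only 1 of 4 adipocyte markers called was Fabp4, and the list had 9.71 to 11.32 in dexamethasone lungs, B46 the highest, and 7.90 to 9.14 in vehicle lungs. All 6 proliferation markers fell, with 12.27 to 12.55 in dexamethasone lungs and 13.52 to 13.75 in vehicle lungs, and 5 of 8 endothelial markers fell, with 13.37 to 13.71 in dexamethasone lungs and 13.93 to 14.12 in vehicle lungs. Of 5 alveolar type 1 markers 4 rose and of 4 alveolar type 2 markers 3. Macrophage markers had a summed level of 12.55 to 13.39 in dexamethasone lungs, B46 the highest, and 12.18 to 12.43 in vehicle lungs, with Cd68, Tyrobp and Adgre1 higher and Aif1 and Cx3cr1 lower. Erythroid markers had 13.03 to 13.70 in dexamethasone lungs and 12.03 to 12.97 in vehicle lungs, with 1 of 4 called, Alas2. Skeletal muscle markers had 8.18 to 8.41 in dexamethasone lungs and 7.71 to 7.91 in vehicle lungs, with 1 of 6 called, Ckm. The part of such shifts in the changes of Slc2a3, Hk2, Pdk4 and the other members was not tested.

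In the dexamethasone cerebella few of the members changed. Txnip fell 3.19-fold, Hk2 rose 2.25-fold and Aldoc rose 1.63-fold, which made 3 of 31 called, or 9.68%, where 4.80% of all genes were called (2.84% higher and 1.97% lower). The median log2 change of the members was 0.09, against 0.01 for all genes. In 4 members every treated cerebellum lay above every vehicle cerebellum and in 4 every one lay below, where such a gap was found in 12.6% of all genes (7.13% higher and 5.44% lower).

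Txnip had 10.32, 8.67, 9.22 and 8.92 in dexamethasone cerebella, against 11.13, 10.80, 10.92 and 10.97 in vehicle cerebella. The vehicle arrays were close together, and B39 was the treated array nearest to them. Its log2 change with dexamethasone was -1.67 ± 0.26 (limma adjusted p = 0.00137), and -2.02 without B39, and its other probe set fell by 1.45 (adjusted p = 0.0220). Arrdc4, the arrestin gene most like Txnip and also under MondoA, fell by 0.60 (adjusted p = 0.00979), with 7.48, 6.87, 7.54 and 7.32 in dexamethasone cerebella, against 7.99, 7.81, 7.92 and 7.91 in vehicle cerebella. In lung Arrdc4 had a log2 change of -0.17 (limma adjusted p = 0.345), and its difference between the organs was 0.43 (0.0958), neither of them called. Mlx, the partner of MondoA and ChREBP, rose in cerebellum by 0.68 (adjusted p = 0.00253). Mlxip, which encodes MondoA, had 0.19 there and Mlxipl, which encodes ChREBP, had -0.16, and neither was called (adjusted p = 0.615 and 0.577).

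Hk2 had 7.84, 9.02, 8.75 and 9.61 in dexamethasone cerebella, against 7.52, 7.82, 7.60 and 7.60 in vehicle cerebella. B39 was barely above the highest vehicle array and the other 3 were well above it. The log2 change was 1.17 ± 0.31 (limma adjusted p = 0.0368), and 1.49 without B39. The call was lost without B49, B50, B52, any single vehicle cerebellum or B12 (adjusted p 0.0503 to 0.104), using cerebellar arrays only (0.0616) and with Xist level as a covariate (0.0598). In cerebellum Aldoc, an aldolase of astrocytes and Purkinje cells, had 13.41, 12.85, 13.27 and 12.78 with dexamethasone, against 12.60, 11.97, 12.40 and 12.53 with vehicle. No array crossed between the groups (log2 change 0.70 ± 0.15, adjusted p = 0.0123). That call was lost on the cerebellar arrays alone (0.0588), with its probe sets averaged (0.0693) and without B39, B46 and B79 together (0.0643), where the log2 change was 0.46. Of 7 astrocyte markers limma called 0 in cerebellum (1 at an unadjusted p under 0.05), at a summed level of 13.93 to 14.25 in dexamethasone and 14.12 to 14.32 in vehicle cerebella. Of 5 oligodendrocyte markers 3 rose, with 14.73 to 15.03 in dexamethasone and 13.92 to 14.70 in vehicle cerebella. Of 6 macrophage and microglia markers Cd68 and Tyrobp fell, with 11.03 to 11.45 in dexamethasone and 11.54 to 11.65 in vehicle cerebella. Of 9 neutrophil markers S100a8 and S100a9 fell, with 8.52 to 9.58 in dexamethasone and 9.32 to 10.27 in vehicle cerebella, which overlap. The part of these cells in the values of Txnip, Hk2 and Aldoc was not tested.

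Pdk4 had 5.64, 5.41, 5.32 and 5.17 in dexamethasone cerebella, against 6.39, 5.93, 6.33 and 6.92 in vehicle cerebella. All treated arrays were lower than all vehicle arrays, and lay between the lower quartile and the median of the arrays. In the fit that shares its spread with the lungs it was not called (log2 change -1.01 ± 0.52, limma adjusted p = 0.347). It was called lower on the cerebellar arrays alone (-1.01 ± 0.19, adjusted p = 0.0196) and without the lung array B46 (adjusted p = 0.0137). Pdk1 was also lower on each treated array, with 8.01, 7.56, 7.87 and 7.63 in dexamethasone cerebella, against 8.04, 8.14, 8.11 and 8.04 in vehicle cerebella, and not called (-0.32 ± 0.11, adjusted p = 0.113; 0.0415 without B39). The 4 probe sets of Pdk1 disagreed in direction there, from -0.43 to 0.35, and none was called on its own. Dlat had 0.27 ± 0.09 (adjusted p = 0.0933) and Pfkm 0.24 ± 0.10 (0.221), both without overlap. Slc2a4 had -0.29 ± 0.16 (0.4), also without overlap.

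Several genes that rose in lung had intervals that spanned 0 in cerebellum. Pcx had a log2 change of 0.00 (95% interval -0.24 to 0.24), Ldhb 0.01 (-0.19 to 0.20), Pkm -0.02 (-0.21 to 0.18) and Tpi1 0.09 (-0.09 to 0.26). Aldoa had 0.06 (-0.26 to 0.39) and Slc2a1 0.09 (-0.43 to 0.61). Slc2a1 is the transporter of the blood-brain barrier, and 5 of 8 endothelial markers fell in these cerebella, with a summed level of 10.57 to 10.74 in dexamethasone and 11.28 to 11.60 in vehicle cerebella. The part of endothelial RNA in its value was not tested.

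Whether the 2 organs answered differently was tested as the lung effect minus the cerebellum effect. The difference was called for 11 of 31 members, 10 with a higher effect in lung and 1, Pfkm, with a lower one (35.5%, where 21.3% of all genes were called, 9.85% higher and 11.5% lower). It was 3.92 ± 0.73 for Pdk4 (limma adjusted p = 0.00109), 2.18 ± 0.37 for Txnip (0.000518) and 1.52 ± 0.16 for Pcx (9.5e-06). For the transporters Slc2a1, Slc2a3 and Slc16a3 it was 1.16 ± 0.35, 1.06 ± 0.22 and 0.94 ± 0.29 (adjusted p = 0.0239, 0.0028 and 0.0278). Without B81 the Slc2a1 difference was not called (0.0524). B81 stood apart from the other vehicle cerebella in the 3′ minus 5′ values, at 0.518 against 0.044 to 0.159 for Gapdh and 0.942 against 0.524 to 0.694 for actin, and the part of this in its Slc2a1 value was not tested. That of Slc16a3 was lost without B52, B80 or B12 (0.0560 to 0.0582). Aldoa, Ldhb, Pdk1 and Pkm had 0.87, 0.66, 0.59 and 0.58 (adjusted p = 0.00185 to 0.0104). Of these, Pdk1 and Slc2a3 were not called with their probe sets averaged (0.0758 and 0.0613). Hk2 and Aldoc, which rose in both organs, had differences of 0.25 (95% interval -0.67 to 1.17) and -0.07 (-0.52 to 0.39). For Tpi1, Pdp1, Pdk2, Pdk3 and Pfkfb2, called higher in lung but not in cerebellum, the difference was not called.

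Without dexamethasone the organs already differed in most members. Of 31, 20 were lower and 5 higher in vehicle lungs than in vehicle cerebella (80.6%, where 57.7% of all genes were called, 29.7% of all genes as lower in lung), with a median log2 difference of -0.80 against 0.00 for all genes. In 4 members every vehicle lung lay above every vehicle cerebellum and in 20 below, where 56.4% of all genes had such a gap (27.4% higher and 29.0% lower). The brain aldolase Aldoc and the neuronal enolase Eno2 stood at the far end. Aldoc averaged 6.99 ± 0.07 in vehicle lungs and 12.37 ± 0.28 in vehicle cerebella, and Eno2 4.68 ± 0.17 in vehicle lungs and 10.05 ± 0.49 in vehicle cerebella (SD, n = 4 each). On these probe sets Aldoc was 41.6-fold lower in lung, but its dimmer probe set had a log2 difference of -2.12 in place of -5.38, and averaging the probe sets gave -3.75. Eno2 in vehicle lungs was near the lower quartile of the arrays (4.48 to 4.67), so its log2 difference of -5.37 may understate the gap. Pcx, Slc2a3, Ldhb and Pfkm were 5.47-fold, 4.61-fold, 3.99-fold and 3.88-fold lower. Those 4 include 3 that dexamethasone raised in lung. Pcx, for example, averaged 8.56 ± 0.20 in dexamethasone lungs, above the 7.04 ± 0.17 of vehicle lungs and under the 9.49 ± 0.07 of vehicle cerebella.

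Txnip and Pfkfb4 were the members furthest higher in vehicle lungs, by 2.39-fold (log2 difference 1.25 ± 0.26, limma adjusted p = 0.00048) and 2.24-fold (1.16 ± 0.11, adjusted p = 1.04e-07). Pfkfb3, Pdk1 and Slc16a3 followed at 0.76, 0.50 and 0.54 on the log2 scale. The Slc16a3 groups overlapped, and its call held in 11 of 16 fits that each left out 1 array. Of the 2 probe sets of Pfkfb3, at 0.76 and 0.15, only 1 was called. For Pdk1 the probe sets disagreed, with 0.50 and 0.35 for 2 of them and -0.45 and -0.88 for the others, so its direction between the organs is not settled. Ldha had -0.10 ± 0.08, Hk2 0.00 ± 0.31 and Pdk4 0.18 ± 0.52, and these were not called, nor were Pfkl, Slc2a4 and Pdk3. The 3 Gapdh probe sets were 1.12 to 1.88 lower on the log2 scale in vehicle lungs. The 3′ minus 5′ gauge of Gapdh was 0.840 to 1.044 in vehicle lungs and 0.044 to 0.518 in vehicle cerebella, without overlap, so organ and this gauge cannot be told apart.

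**Figure D4:**
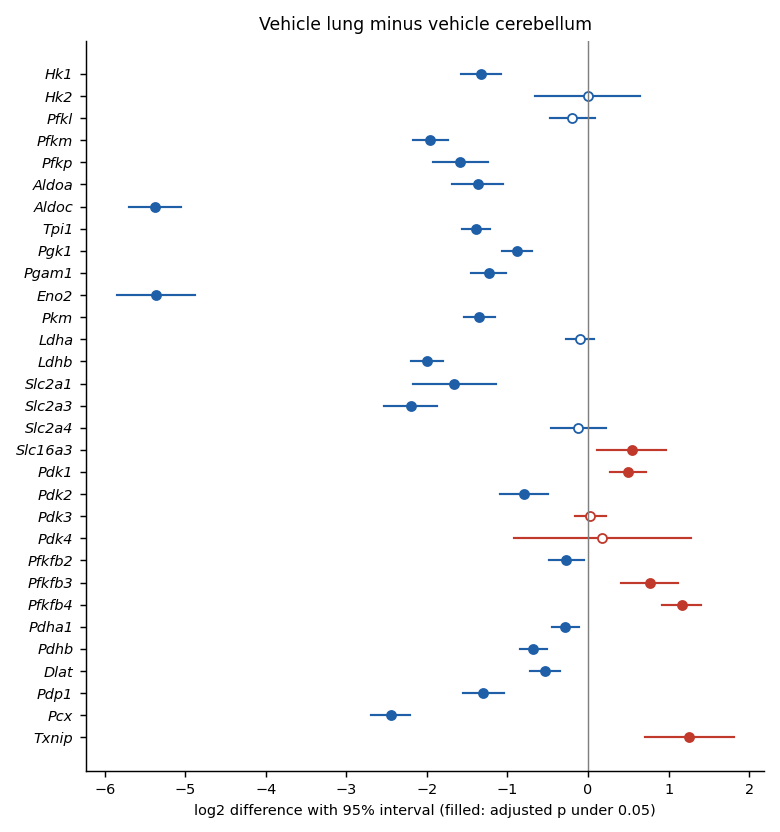
Log2 difference of vehicle lung minus vehicle cerebellum for the 31 members, with 95% intervals from the fit on 4 arrays per group. Aldoc and Eno2 lie beyond -5, 25 of the 31 points are filled (called), and Txnip and Pfkfb4 lie beyond 1.

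Genes of the pathway outside the members were called in lung too. Of 31 further genes of glycolysis, pyruvate and sugar or monocarboxylate transport, 14 rose and 3 fell in lung (54.8%, where 31.2% of all genes were called), with a median of 0.30 on the log2 scale against 0.05 for all genes. The mitochondrial pyruvate carrier Mpc1 rose 1.58-fold (limma adjusted p = 1.37e-05), with 10.98, 10.91, 11.05 and 10.82 in dexamethasone lungs, against 10.40, 10.16, 10.34 and 10.24 in vehicle lungs. The transporter Slc2a12 rose 2.36-fold, and Slc2a10 fell 1.51-fold. The red cell mutase Bpgm rose 1.77-fold and the phosphoglucomutase Pgm1 1.64-fold. The muscle isozymes Pgam2 and Eno3 rose 1.64-fold and 1.45-fold, beside the cardiac markers. Hk3, a hexokinase of leukocytes, rose 1.35-fold, beside the neutrophil markers. The part of such cells in the values of Pgam2, Eno3 and Hk3 was not tested. Others that rose were Hkdc1, Adpgk, Galm, Ldhd, Slc2a5, Slc16a1 and Slc16a7, at 0.30 to 0.79 on the log2 scale, and Pgm2 and Pdpr fell by 0.29 and 0.39. In cerebellum 2 of the 31 rose, the complex subunit Pdhx by 0.48 and the sugar bisphosphatase Tigar by 0.41, and 1 fell, Arrdc4. Over all genes 2.84% were called higher there and 1.97% lower.

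Linked pathways were read from short lists, and their shares were not compared by a test. Over all genes 31.2% were called in lung (15.7% higher and 15.5% lower) and 4.80% in cerebellum. In the pentose phosphate pathway 2 of 7 rose in lung, Pgd and Taldo1, 1.56-fold and 1.47-fold. Of 5 gluconeogenesis genes 2 rose there, Fbp1 and Fbp2, at 0.74 and 0.68, and Fbp1 was led by B46, with 5.35, 5.26, 4.96 and 6.58 in dexamethasone lungs, against 4.96, 4.76, 4.99 and 4.51 in vehicle lungs. Of 8 glycogen genes 3 rose and 2 fell in lung, among them the liver-type phosphorylase Pygl at 2.27-fold higher and the muscle-type Pygm at 2.01-fold lower. In cerebellum limma called 0 genes of these lists, and 2, both of the pentose phosphate pathway, had an unadjusted p under 0.05.

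Of 12 other hypoxia-inducible genes, 5 rose in lung and limma called 0 in cerebellum (3 at an unadjusted p under 0.05), with medians of 0.56 and 0.26 on the log2 scale. That is 41.7% called in lung, all of them higher, where 31.2% of all genes were called and 15.7% were called higher. In cerebellum 4.80% of all genes were called, which leaves 0 of 12 near the background. The collagen hydroxylases P4ha2 and P4ha1 rose 2.81-fold and 1.70-fold, the mitophagy receptor Bnip3 2.46-fold, the growth inhibitor Ddit4, also a glucocorticoid target, 2.15-fold and Ndrg1 1.78-fold. Bnip3 had 11.35, 11.24, 11.42 and 12.36 in dexamethasone lungs, against 10.23, 10.14, 10.40 and 10.38 in vehicle lungs, with B46 at the top as for Hk2, Slc2a1 and Pdk4. Hif1a itself had log2 changes of -0.16 ± 0.10 in lung and -0.16 ± 0.10 in cerebellum, and Vegfa 0.30 ± 0.12 (adjusted p = 0.0806) and 0.28 ± 0.12 (0.263). Among 12 transcription factors of glycolysis and glucose sensing, 2 rose and 1 fell in lung, or 25%, under the 31.2% of all genes. Mlx rose there by 0.64 (adjusted p = 0.000417), close to its 0.68 in cerebellum, and Foxo1 fell by 0.51. In cerebellum Mlx rose and Foxo3 fell by 0.57.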

How the data were processed

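RNA from whole lung and whole cerebellum was hybridised to 1-colour Affymetrix arrays, 4 per group. The authors deposited log2 expression values that are RMA-summarised, per the submitters' processing notes, and these were used without further normalization. Of 45101 probe sets, 64 were controls, 34945 carried 1 gene symbol, 932 several and 9160 none. Symbols came from the platform annotation, and 18032 of 18193 were taken from RefSeq by identifier. Each gene was read from its probe set with the highest mean over 16 arrays. All members are named. Of other lists some called genes are named, not every one, along with a few that were not called. R 4.3.3 and limma 3.58.1 fitted 4 group means with a shared spread (12 residual degrees of freedom), with Benjamini-Hochberg adjustment over 18193 genes. Every p is two-sided. Depth has no counterpart here, and the number of arrays limits precision. The fit was tested on simulated data. Promoters are from RefSeq (GRCm38.p6). Alternatives were averaged probe sets, single probe sets, a dim-gene filter at 6, quantile normalization, separate organs, a variance trend, Xist level as a covariate and arrays left out. The members and lists were chosen with earlier results of these data known.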

Additional observations from a re-analysis of the deposited data

Results flagged for a closer look

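Among 124 sets of 4 arrays (31 members in 4 groups), 8 had an array that stood apart from the other 3 by Dixon's test, and chance alone flags about 1 in 20 sets. In dexamethasone lungs, Hk1 was 9.594 on B28 against 9.726 to 9.749 on the others, Ldha was 11.855 on B40 against 11.694 to 11.702, and Pfkfb4 was 8.452 on B46 against 8.942 to 8.971. In vehicle lungs, Dlat was 8.915 on B22 against 8.791 to 8.798, and Txnip was 11.849 on B19 against 12.293 to 12.358. In vehicle cerebella, Hk1 was 10.527 on B79 against 10.958 to 11.032, Pfkp was 9.5 on B79 against 9.812 to 9.826, and Slc2a1 was 10.336 on B81 against 9.807 to 9.873.

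For 11 members the dexamethasone effect in lung differed from that in cerebellum in the limma test of the difference itself. On the log2 scale, lung effect minus cerebellum effect, it was 3.92 for Pdk4, 2.18 for Txnip, 1.52 for Pcx, 1.16 for Slc2a1, 1.06 for Slc2a3, 0.94 for Slc16a3, 0.87 for Aldoa, 0.66 for Ldhb, 0.59 for Pdk1, 0.58 for Pkm and -0.56 for Pfkm.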

How the results depend on the processing

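In lung the count of members called higher was 14 to 17 over the alternatives and 12 to 17 with 1 array left out, against 15. The count called lower, 1 in the report, was 0 after quantile normalization, with lung arrays only and with Xist level as a covariate, 2 without B39, B46 and B79 together (an alternative chosen after seeing the data), and 0 to 1 with 1 array left out. In cerebellum the count called higher, 2 in the report, was 1 with probe sets averaged, 0 with cerebellar arrays only, 1 with Xist level as a covariate, 1 without those 3 arrays and 1 to 2 with 1 array left out. The count called lower, 1 in the report, was 2 with cerebellar arrays only, 2 without those 3 arrays and 1 to 2 with 1 array left out. For the difference between organs the counts were 9 to 12 higher (9 to 11 with 1 array left out), against 10, and 1 lower, or 2 without those 3 arrays and 1 to 2 with 1 array left out. Between vehicle organs 4 to 5 were higher and 18 to 20 lower in lung.

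Called directions turned under single probe sets or their mean in 10 cases. Slc2a3 on its dim probe sets had -0.0848 in lung, -0.0725 and -0.247 for the difference and 0.0573 between vehicle organs. Pdk1 had -0.23 for the difference, and between vehicle organs -0.12 with probe sets averaged and -0.45 and -0.88 on single ones. Pfkfb2 had 0.0483 and 0.136 between vehicle organs. The cause was not tested. Of 2965 comparisons of a member with an alternative, 75 lost the call, 31 gained it and 10 turned as above. Another 24, uncalled in both fits, changed sign by more than their standard error. The remaining 2825 were called, or not called, as before, and uncalled ones among them could change sign by less than that. No paired analysis was possible because the groups share no replicate number.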
